A study of Mus musculus with 6 samples.

Results

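The ion-exchanging solute carriers described here are the members of 8 families of the mouse SLC series, SLC4 (bicarbonate), SLC8 (sodium/calcium), SLC9 (sodium/proton), SLC12 (cation-chloride), SLC24 (potassium-dependent sodium/calcium), SLC26 (anion), SLC30 (zinc export and storage) and SLC39 (zinc, iron and manganese import). Members were taken by their symbols, and 3 genes of these families (Slc4a4, Slc4a5 and Slc12a2) were not included. This gave 71 of 22086 genes. No measured value was a criterion, but the families were chosen with earlier results of these data known. Of them, 68 encode transporters, and 3 only carry a similar symbol: Slc4a1ap, named for a kidney anion exchanger adaptor protein, and Slc9a3r1 and Slc9a3r2, which encode the scaffold proteins NHERF1 and NHERF2. They were compared between 2 genotypes of mice, both homozygous for a floxed allele of Gja1, the gene of the gap junction protein connexin 43 (Cx43), and both carrying the Aldh1l1:L10a-eGFP transgene, in which the Aldh1l1 promoter drives a tagged ribosomal protein in astrocytes. Littermates without Cre are called Cx43FL, and mice in which Cre under a Gfap promoter deletes the floxed allele are called Cx43KO, with 3 libraries each from the hippocampus at 6 weeks of age. Ribosomes were pulled down with the tag (translating ribosome affinity purification, TRAP), so that the RNA measured is ribosome-bound and enriched for astrocytes.

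Transporters of this kind use the gradient of one ion to move another. The sodium/proton exchangers and the bicarbonate transporters set the pH inside cells, in endosomes and in the extracellular space, the sodium/calcium exchangers remove calcium after a signal, and the cation-chloride cotransporters set cell volume and the chloride level on which inhibitory transmission depends. The zinc exporters of the SLC30 family lower cytosolic zinc, and the SLC39 importers raise it. In the hippocampus, astrocytes are known for clearing potassium, buffering pH and taking up zinc released by synapses.

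The deposited values are read counts on transcripts, and a gene stands for whichever of its transcripts had most counts over the 6 libraries. The total counts on genes ranged from 14787303 to 15391214 in Cx43FL and from 16056347 to 34733473 in Cx43KO. Below, CPM are counts per M of a library's counts on the tested genes after TMM scaling, an adjustment for library composition, and CPM per kb divide this by the transcript length so that different genes can be set side by side. Before that scaling, 3 counts, the limit that a count of 0 allows, correspond to 0.0864 to 0.203 CPM, a figure that covers counting error only because amplified reads are not independent molecules. The targeted gene, Gja1 (chromosome 10, 56377330 to 56402513 in GRCm38), had 92.0, 91.7 and 82.3 CPM in Cx43FL and 87.2, 98.4 and 95.1 CPM in Cx43KO. Its level thus did not distinguish the genotypes, and the counts do not show whether the reads come from the deleted part, so that Cx43FL and Cx43KO, and every direction given below, follow the sample labels. Markers of astrocytes were abundant, with 27540 to 31210 CPM in sum over 10 genes in Cx43FL, and 13520, 26270 and 37710 CPM in Cx43KO replicates 1 to 3. Cx43KO replicate 1 thus stood apart in this sum. Of the 10 astrocyte markers, 4 had a positive and 6 a negative log2 fold change. Glul and Gjb6 lay below in every Cx43KO library, and 0 markers of this list lay above. Neuronal markers summed to 2141, 2782 and 2878 CPM in Cx43FL, and to 7829, 3045 and 4503 in Cx43KO, with 12 of 12 markers having a positive log2 fold change and 4 lying above in every Cx43KO library. Choroid plexus markers summed to 10930, 604.8 and 16640 CPM in Cx43FL, and to 35930, 29220 and 27670 in Cx43KO, 6 of 8 lying above in every Cx43KO library. Over all tested genes, 54.4% had a positive log2 fold change, 8.08% lay above in every Cx43KO library and 7.45% lay below. No marker of the neuronal or choroid plexus list was at 0 in all libraries. More cells of a type, or more RNA per cell, cannot be told apart in such samples, and the purity of each pull-down was not tested.

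Of the 71 members, 46 had at least 10 counts in every Cx43FL library. Over all 6 libraries, 54 passed edgeR's filter on low counts, among them 51 of the 68 transporters, and 17 did not. No read was counted for 3 members, Slc12a1, Slc30a8 and Slc4a9, which are best known from kidney and pancreas, and 7 members, those 3 included, had 3 counts or fewer over the 6 libraries. A member that enters the test only through its level in 1 genotype had to differ. Slc9a4, Slc26a7 and Slc12a7, for example, had a Cx43FL library without a count, and they are among the 54 tested members to which the counts below refer, so that these counts describe the tested members and are no support for a direction.

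By level per length, the most abundant member in Cx43FL was the scaffold gene Slc9a3r1, at 226 ± 56.7 CPM per kb (SD, n = 3 libraries). Among transporters, the zinc importer gene Slc39a12, known for its expression in astrocytes, came first with 50.1 ± 6.91 CPM per kb, and Slc30a9, which encodes a mitochondrial zinc transporter, followed with 39.4 ± 8.78 CPM per kb. The gap between these 2 levels was larger than either SD but smaller than their sum. Slc24a5, which encodes an intracellular exchanger known from pigment cells, had 13.2 ± 6.17 CPM per kb and Slc39a6, a zinc importer gene, had 12.7 ± 7.42 CPM per kb, so that their order cannot be told. Slc24a5 shares 47.1% of its exonic bases with Myef2 on the opposite strand, and the kit does not mark strand, so that its reads cannot be told apart from those of Myef2.

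The abundant genes of the other families had lower levels. In the SLC24 family the plasma membrane exchanger gene Slc24a2 had 9.70 ± 1.58 CPM per kb. In the SLC30 family Slc30a5, which loads zinc into the secretory pathway, had 9.21 ± 2.14 CPM per kb. In the SLC9 family the Golgi exchanger gene Slc9a7 had 3.19 ± 1.85 CPM per kb. In the SLC4 family Slc4a10, a sodium-dependent bicarbonate transporter gene of neurons and choroid plexus, had 7.41 ± 1.47 CPM per kb, and the anion exchanger gene Slc4a2 had 6.23 ± 1.86 CPM per kb, a difference within their spread. Of the exons of Slc4a2, 16.6% overlap Fastk on the opposite strand. In the SLC12 family the potassium-chloride cotransporter gene Slc12a5 had 4.06 ± 1.15 CPM per kb. The anion transporter genes Slc26a4 and Slc26a2 had 2.45 ± 1.72 and 1.30 ± 0.58 CPM per kb, and the calcium exchanger genes Slc8a1 and Slc8a2 had 1.60 ± 0.64 and 1.24 ± 0.11 CPM per kb. For both pairs the intervals of 1 SD overlapped.

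**Figure D1:**
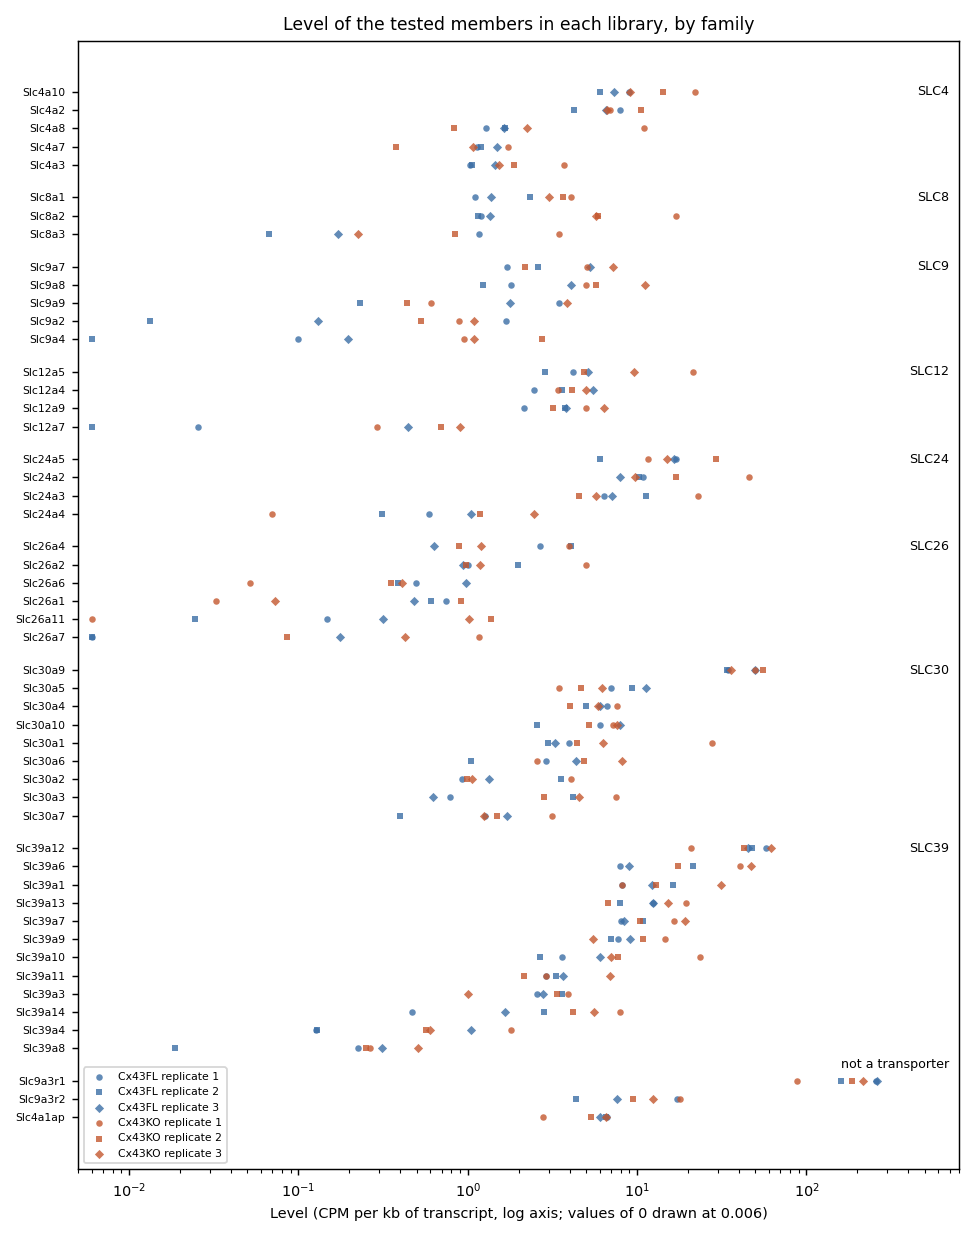
Level of 51 of the 54 tested members in each library, in CPM per kb of transcript on a log axis, ordered within each family by the Cx43FL mean, with values of 0 drawn at 0.006. Blue symbols are the 3 Cx43FL libraries and orange symbols the 3 Cx43KO libraries. Slc9a3r1, Slc39a12 and Slc30a9 lie to the right of all other members in Cx43FL, and most members have overlapping blue and orange symbols.

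The comparison of genotypes asked whether deletion of astroglial Cx43, a route by which ions and small molecules pass between astrocytes, went along with a different set of ion exchangers on ribosomes. With edgeR's quasi-likelihood test and a Benjamini-Hochberg adjustment over all tested genes, 0 members were called higher and 0 lower in Cx43KO at an adjusted p below 0.05 with a mean above 50 normalized counts. Of all 13545 tested genes, 0.00738% were called higher and 0% lower. The lowest adjusted p among the members was 0.490. At an unadjusted p below 0.05 and the same minimum, 11 members had higher and 0 had lower counts in Cx43KO, against 5.63% and 2.64% of all tested genes. Without Cx43KO replicate 1, these were 6 and 0 of 56 members then tested, against 5% and 3.06% of all genes, and 0 members were called in either direction after adjustment, against 0.0788% of all genes called higher and 0% lower. Of the 11 members, 10 are described with their families below. In these same libraries, 8 of the 11 lay above in every Cx43KO library, which is no separate evidence for a direction.

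DESeq2, the tool of the study, called more genes. With its prior on fold changes, it called 1 member higher in Cx43KO, Slc8a2, with an adjusted p of 1.66e-04, against 0.671% of all genes with a count. Without the prior it called 2 members, Slc8a2 (adjusted p = 1.02e-04) and Slc9a4 (adjusted p = 0.0413), against 0.873% of these genes. It called 0 members lower in either setting, against 0.101% of these genes with the prior and 0.16% without it. Both genes are in the list of transcripts that the study selected as raised on these same libraries, so that their direction there is no independent evidence.

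The log2 fold changes of Cx43KO against Cx43FL (log2FC, with SE for its standard error) lay mostly above 0 for the members. They were positive for 43 and negative for 11 of the 54 tested members, to be read against 54.4% and 45.6% of all tested genes. Without Cx43KO replicate 1 these were 41 and 15 of 56 members, against 50.1% and 49.9%. Their median was 0.68, against 0.07 over all tested genes. Without Cx43KO replicate 1 the medians were 0.46 and -0.0015 over the same genes. With upper-quartile scaling the median over all genes was 0.01 and that of the members 0.61. All 3 Cx43KO libraries were above all 3 Cx43FL libraries for 10 members, and all below for 1 member, against 8.08% and 7.45% of all tested genes. Without Cx43KO replicate 1, which makes such an order more frequent, these were 14 and 4 of 56 members, against 13.8% and 12.3% of all genes. An exact permutation test of 3 against 3 libraries cannot give a p below 0.1, so none is reported for single members.

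Family by family, all 3 genes of SLC8 had positive log2FCs, with a median of 1.68. For SLC4 4 of 5 tested genes were positive (median 1.01), for SLC9 6 of 7 (median 0.90), for SLC24 4 of 4 (median 0.71) and for SLC12 5 of 5 (median 0.58). The zinc families had medians of 0.64 in SLC39, with 10 of 12 positive, and of 0.28 in SLC30, with 7 of 9 positive (6 of 9 with upper-quartile scaling). SLC26 was split, with 3 positive and 3 negative values and a median of 0.29, which was -0.29 over the same genes without Cx43KO replicate 1. The 3 genes that are not transporters had a median of -0.40, with 1 of 3 positive. Without Cx43KO replicate 1 the medians over the same genes were 1.05 for SLC8, 0.46 for SLC4, 0.63 for SLC9, 0.60 for SLC24, 0.55 for SLC12, 0.57 for SLC39, 0.22 for SLC30 and -0.12 for the genes that are not transporters. No family had a member with an adjusted p below 0.05 from edgeR. The sign of each family's median was the same with DESeq2's size factors and upper-quartile factors.

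**Figure D2:**
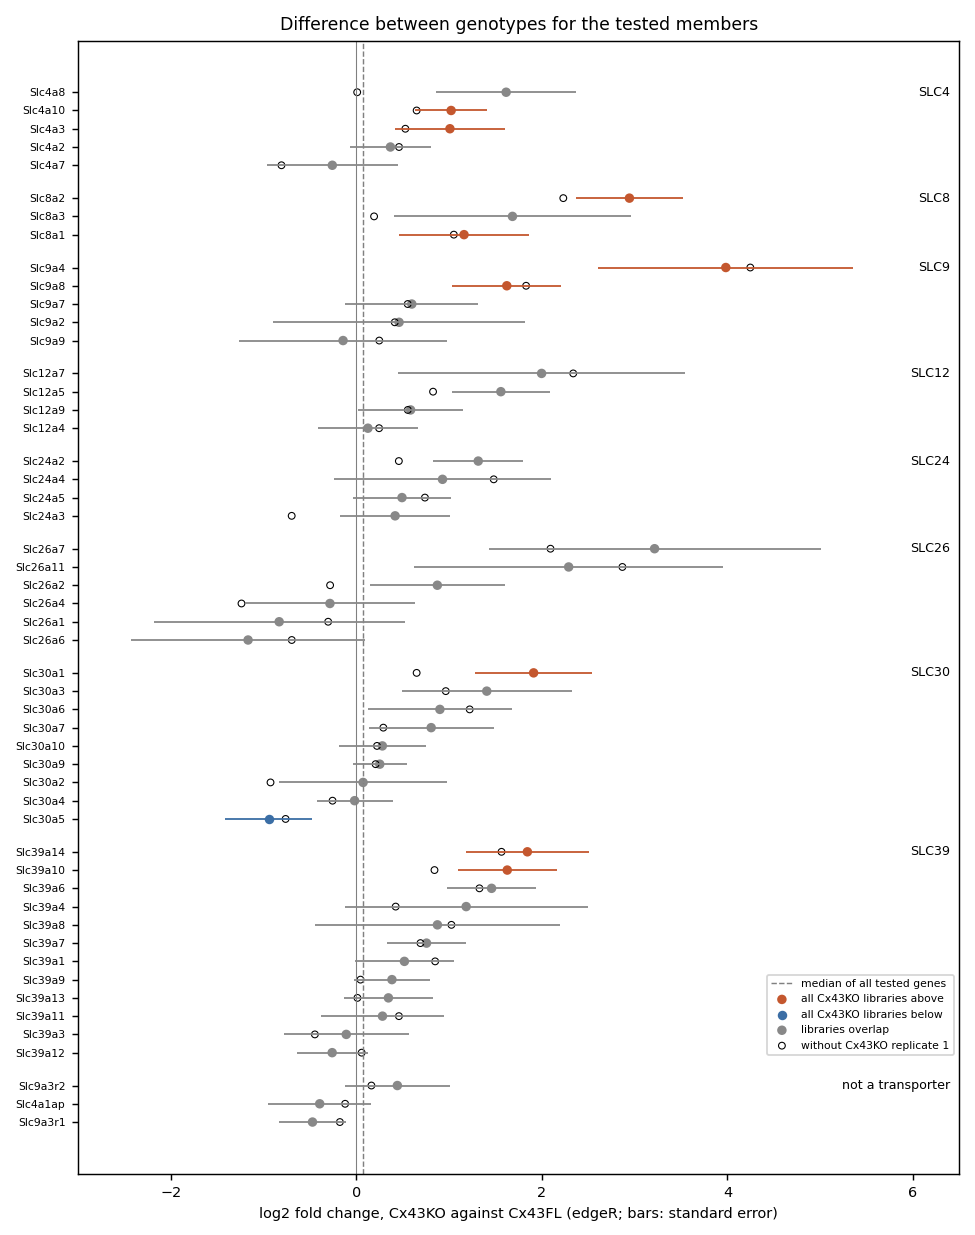
Log2 fold change of Cx43KO against Cx43FL for 51 of the 54 tested members, by family, with bars for the standard error from edgeR. Orange points mark the 9 plotted members above in every Cx43KO library, the blue point the 1 member below in every Cx43KO library, and open circles the values without Cx43KO replicate 1, which are closer to 0 for many members. The dashed line is the median of all tested genes, 0.07.

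The sodium/calcium exchangers came first by size of the family median. Slc8a2 (ENSMUSG00000030376, chromosome 7, 16129826 to 16161063), which encodes the exchanger NCX2 of the brain, had 5.01, 4.78 and 5.67 CPM in Cx43FL and 70.5, 24.6 and 23.9 CPM in Cx43KO. The Cx43FL libraries were close together and the Cx43KO libraries all far above, with Cx43KO replicate 1 highest. The difference was a log2FC of 2.94 (SE 0.58, adjusted p of 0.490 from edgeR) and of 2.23 without Cx43KO replicate 1. With each library left out in turn it stayed between 2.23 and 3.20. Slc8a1 (chromosome 17, 81373105 to 81738377), the gene of the exchanger NCX1 found in most tissues, had 3.23, 6.77 and 3.97 CPM in Cx43FL and 11.9, 10.6 and 8.77 CPM in Cx43KO. Here the Cx43KO libraries were close together, and the log2FC of 1.16 (SE 0.71) was 1.05 without Cx43KO replicate 1. All 3 transcripts of Slc8a1 had the same counts, so that its isoforms cannot be told apart. The third gene of the family, Slc8a3, had a log2FC of 1.68 that was only 0.19 without Cx43KO replicate 1.

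Of the sodium/proton exchangers of the plasma membrane, Slc9a4 (ENSMUSG00000026065, chromosome 1, 40580081 to 40630725), the gene of NHE4, best known from the stomach, had few reads, with 6, 0 and 12 counts in Cx43FL, against 61, 269 and 139 in Cx43KO. In this gene Cx43KO replicate 1 was the lowest Cx43KO library, at 3.79 CPM against 10.8 and 4.29 CPM. Its log2FC was 3.98 (SE 1.38, adjusted p of 0.540 from edgeR) and stayed between 3.34 and 4.95 with each library left out.

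The exchangers of intracellular membranes gave a mixed picture. Slc9a8 (chromosome 2, 167421712 to 167477000), the gene of NHE8 of the Golgi and endosomes, had 8.17, 5.57 and 18.3 CPM in Cx43FL and 22.5, 25.7 and 50.4 CPM in Cx43KO. Its highest library was Cx43KO replicate 3, and the log2FC was 1.62 (SE 0.59), or 1.83 without Cx43KO replicate 1. Slc9a7 had 4.28 to 13.2 CPM in Cx43FL against 5.47 to 18.1 CPM in Cx43KO, a log2FC of 0.60 that was smaller than its SE of 0.72. Slc9a3r1, the scaffold that anchors exchangers to ezrin, had 493, 310 and 504 CPM in Cx43FL, and 170, 356 and 415 in Cx43KO (log2FC -0.47, SE 0.36). Its lowest library was Cx43KO replicate 1, the library in which the sum of the astrocyte markers was lowest. Slc4a1ap also had a negative log2FC, of -0.40 (SE 0.56), and its libraries overlapped.

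Among the bicarbonate transporters, Slc4a10 (ENSMUSG00000026904, chromosome 2, 62046462 to 62326730) had 49.1, 33.0 and 39.9 CPM in Cx43FL and 120, 77.7 and 50.02 CPM in Cx43KO. The lowest Cx43KO library was barely above the highest Cx43FL library. Its log2FC was 1.02 (SE 0.39), and 0.65 without Cx43KO replicate 1. The separation was lost with upper-quartile scaling. Slc4a3 (chromosome 1, 75546266 to 75562172), the gene of the anion exchanger AE3 of brain and heart, had 7.38, 7.63 and 10.4 CPM in Cx43FL and 26.6, 13.4 and 11.1 CPM in Cx43KO. Its log2FC was 1.01 (SE 0.59), and 0.53 without Cx43KO replicate 1. When the counts of all transcripts of a gene were added up, the libraries of both Slc4a10 and Slc4a3 overlapped. The anion exchanger gene Slc4a2, at 17.6 to 33.0 CPM in Cx43FL against 27.8 to 43.9 in Cx43KO, had a log2FC of 0.37 (SE 0.43).

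Of the cation-chloride cotransporters, Slc12a5 (chromosome 2, 164960802 to 164999731), the gene of KCC2, known as the chloride extruder of mature neurons, had 25.4, 17.1 and 30.9 CPM in Cx43FL and 129, 29.2 and 57.8 CPM in Cx43KO. The libraries overlapped, since Cx43KO replicate 2 lay below Cx43FL replicate 3. Slc12a5 had a log2FC of 1.56 (SE 0.52, unadjusted p of 0.0129 and adjusted p of 0.540 from edgeR), which was 0.83 without Cx43KO replicate 1. Slc12a7, the gene of KCC4, had 2, 0 and 35 counts in Cx43FL, against 24, 89 and 149 in Cx43KO. Its log2FC of 2.0 came with an SE of 1.55 and lay between 1.41 and 5.49 with each library left out, the highest value being that without Cx43FL replicate 3.

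The potassium-dependent exchanger gene Slc24a2 (chromosome 4, 86983124 to 87230477), which encodes NCKX2 of neurons and cone photoreceptors, had 114, 108 and 82.9 CPM in Cx43FL, and 479, 178 and 102 in Cx43KO. Only Cx43KO replicates 1 and 2 lay above all Cx43FL libraries. It had a log2FC of 1.31 (SE 0.49, unadjusted p of 0.0209 and adjusted p of 0.544 from edgeR), or 0.46 without Cx43KO replicate 1. Slc24a5, whose reads are shared with Myef2, had 11.9 to 33.3 CPM in Cx43FL against 22.7 to 56.8 CPM in Cx43KO, with a log2FC of 0.49 (SE 0.53).

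The anion transporters of the SLC26 family had few reads and the widest spread. The 6 tested genes had log2FCs between -1.17 and 3.21. The value of 3.21 (SE 1.79) belonged to Slc26a7, with 0, 0 and 14 counts in Cx43FL, against 97, 11 and 71 in Cx43KO, and it was 8.90 without Cx43FL replicate 3, the only Cx43FL library with a count, and 2.09 without Cx43KO replicate 1. Slc26a11 had 6, 1 and 13 counts in Cx43FL, against 0, 92 and 89 in Cx43KO, a log2FC of 2.29 (SE 1.66). The lowest values were those of Slc26a6, a chloride/bicarbonate and oxalate exchanger gene, at -1.17 (SE 1.26), and of the sulfate transporter gene Slc26a1, at -0.83 (SE 1.35). The value of Slc26a1 was -3.46 without Cx43KO replicate 2 and -0.30 without Cx43KO replicate 1. The sulfate transporter gene Slc26a2 had 0.87 (SE 0.73), with 39.2 CPM in Cx43KO replicate 1 and 7.29 to 15.4 CPM in the other libraries. Slc26a4, the gene of pendrin, had -0.29 (SE 0.92). For all of these genes the libraries overlapped, and except for Slc26a2 and Slc26a4, no library reached 10 CPM.

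The zinc exporters held the only tested member with all Cx43KO libraries below all Cx43FL libraries. Slc30a5 (ENSMUSG00000021629, chromosome 13, 100802648 to 100833427) had 22.3, 29.6 and 36.0 CPM in Cx43FL and 11.0, 14.8 and 19.8 CPM in Cx43KO. Its log2FC was -0.95 (SE 0.47, adjusted p of 0.604 from edgeR), or -0.76 without Cx43KO replicate 1, the lowest library. Slc30a1 (ENSMUSG00000037434, chromosome 1, 191906767 to 191913247), the gene of the plasma membrane exporter ZnT1, whose transcription is known to respond to zinc, had 20.8, 15.6 and 17.1 CPM in Cx43FL and 145, 23.1 and 32.9 CPM in Cx43KO. All Cx43KO libraries lay above, but the size of the difference came mainly from Cx43KO replicate 1, with a log2FC of 1.91 (SE 0.63) with it and 0.65 without it.

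Other zinc exporter genes had overlapping libraries. Slc30a3, whose product ZnT3 loads zinc into the vesicles of glutamatergic neurons, had 1.65, 8.76 and 1.30 CPM in Cx43FL and 15.7, 5.87 and 9.48 CPM in Cx43KO (log2FC 1.41, SE 0.92, and 0.96 to 2.79 with each library left out). Slc30a10, a manganese exporter gene, had 14.9 to 46.0 CPM in Cx43FL against 30.4 to 44.3 CPM in Cx43KO, a log2FC of 0.28 (SE 0.47). Slc30a9, the most abundant exporter gene, had 194 to 283 CPM in Cx43FL, and 206 to 314 in Cx43KO, a log2FC of 0.25 (SE 0.29). The differences of Slc30a9 and Slc30a10 were thus smaller than their errors.

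Among the zinc importers, Slc39a10 (ENSMUSG00000025986, chromosome 1, 46807544 to 46892852), a plasma membrane importer gene, had 19.9, 14.7 and 33.4 CPM in Cx43FL and 129, 42.6 and 38.7 CPM in Cx43KO. Every Cx43KO library lay above, with a log2FC of 1.63 (SE 0.54) that was 0.84 without Cx43KO replicate 1. Slc39a14 (ENSMUSG00000022094, chromosome 14, 70303469 to 70351425), which encodes ZIP14, an importer of zinc, iron and manganese, had 2.31, 13.8 and 8.21 CPM in Cx43FL and 39.05, 20.7 and 27.5 CPM in Cx43KO. This difference did not rest on Cx43KO replicate 1, the log2FC being 1.84 (SE 0.66) with it and 1.56 without it. Slc39a6, a relative of Slc39a10, had 31.0, 82.7 and 34.8 CPM in Cx43FL and 158, 67.4 and 182 CPM in Cx43KO. Its log2FC was 1.46 (SE 0.48, unadjusted p = 0.0111), but Cx43KO replicate 2 lay below Cx43FL replicate 2. Slc39a12, the most abundant importer gene, had 155, 127 and 120 CPM in Cx43FL and 55.8, 115 and 165 CPM in Cx43KO. Its log2FC was -0.26 (SE 0.38), and 0.056 without Cx43KO replicate 1, in which the sum of the astrocyte markers was also lowest.

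**Figure D3:**
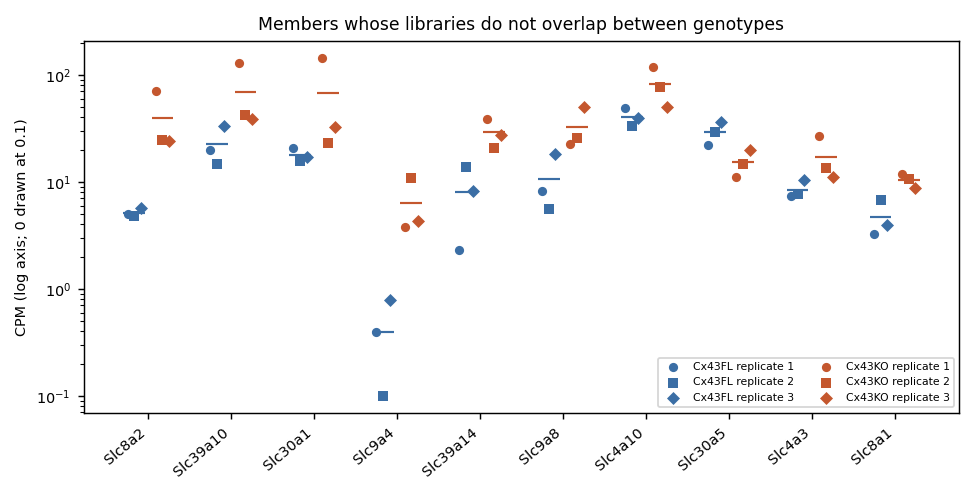
CPM on a log axis of 10 of the 11 members whose libraries did not overlap between genotypes, ordered by p from edgeR. Each symbol is a library, blue for Cx43FL and orange for Cx43KO, short lines are the genotype means, and a value of 0 (Slc9a4 in Cx43FL replicate 2) is drawn at 0.1. Slc30a5 is the only one of them with the orange symbols below the blue ones, and Cx43KO replicate 1 is the highest Cx43KO library for 7 of the other 9.

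How the reads lie along the genes could be followed in part, because reads were counted on every transcript they overlap. For Slc12a5 a transcript of 2 exons and 2996 bases at the 3′ end held 73.9% to 96.5% of the count of the full transcript of 6028 bases. For Slc39a14 a form of 2098 bases that ends 2828 bases before the long one had 1, 0 and 8 counts in Cx43FL, against 2, 78 and 2 in Cx43KO, while the long form had 35, 208 and 126 counts, and 629, 515 and 892 counts. The separation of Slc39a14 was thus seen in the long form and not in the short form, which has nearly no reads. For Slc30a1 a form of 677 bases, ending 4074 bases earlier, held 0.9% to 10.3% of the count. For Slc24a2 a form of 2218 bases, without the long 3′ end of 8044 bases, had 8.69, 19.3 and 14.3 CPM in Cx43FL and 63.4, 21.3 and 21.0 CPM in Cx43KO, so that its libraries did not overlap, unlike those of the long form. For Slc4a10 and Slc4a3 the reverse was found, with libraries that overlapped in the shorter form. In Slc9a8 the shorter form of 2055 bases held 76.2% to 96.6% of the count and its libraries did not overlap, at 4.25 to 14.9 CPM in Cx43FL against 20.8 to 48.6 CPM in Cx43KO. The forms of a gene share reads, so that these values are not independent.

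The stretches of 250 bases before the start are shown for 3 of the members that lay above in every Cx43KO library, those with the lowest unadjusted p that had an entry in the RefSeq table of promoters (build GRCm38.p6). They are shown because these genes lay above together and because Slc30a1 is a textbook target of the metal-responsive factor MTF1. Capitals mark the core of its motif, TGCACNC or TGCGCNC on either strand. The start in the table lay 522, 428 and 14 bases from the start of the counted transcript for Slc8a2, Slc39a10 and Slc30a1. They lie at chr7:16129576-16129825 on the plus strand, chr1:46853619-46853868 on the minus strand and chr1:191906531-191906780 on the plus strand, and are written 5′ to 3′.
Slc8a2: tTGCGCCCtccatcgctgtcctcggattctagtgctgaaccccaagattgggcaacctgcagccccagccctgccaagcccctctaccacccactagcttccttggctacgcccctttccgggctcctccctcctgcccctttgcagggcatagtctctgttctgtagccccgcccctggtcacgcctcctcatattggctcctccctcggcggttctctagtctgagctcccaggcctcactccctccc
Slc39a10: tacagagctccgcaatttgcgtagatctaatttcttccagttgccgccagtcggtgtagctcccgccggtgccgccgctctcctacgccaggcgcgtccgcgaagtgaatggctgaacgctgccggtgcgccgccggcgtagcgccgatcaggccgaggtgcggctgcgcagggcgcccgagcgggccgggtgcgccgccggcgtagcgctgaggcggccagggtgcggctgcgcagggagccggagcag
Slc30a1: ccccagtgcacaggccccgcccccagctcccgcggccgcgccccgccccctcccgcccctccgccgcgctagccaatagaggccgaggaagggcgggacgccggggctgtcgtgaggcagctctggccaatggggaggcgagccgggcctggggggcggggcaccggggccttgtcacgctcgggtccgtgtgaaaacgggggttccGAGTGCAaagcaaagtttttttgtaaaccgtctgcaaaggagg

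The motif core was found 1 time in Slc8a2, 0 times in Slc39a10 and 1 time in Slc30a1. It was present in 19 of the 56 members with an entry and in 9 of the 20 zinc transporter genes among them, while 21.4% of all 32851 promoters of the table hold it. Of the 10 members above in every Cx43KO library, 7 had an entry and 3 of these held the core. The GC box GGGCGG on either strand, the motif of the general factor SP1, was present in 1 copy in Slc8a2, 0 in Slc39a10 and 5 in Slc30a1, in 30 of the 56 members and in 32.7% of all promoters. The members' promoters had a median GC content of 61.0%, against 52.4% over the table, which bears on any motif rich in G and C. A match is only a match of letters.

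Other genes that work with these transporters were taken as lists by function, to be read against all tested genes, of which 54.4% had a positive log2FC, 5.66% a positive one at an unadjusted p below 0.05 with no minimum on the mean, and 8.08% lay above in every Cx43KO library. The sodium pump, which builds the sodium gradient that most of the exchangers use, had positive log2FCs for 6 of 6 genes, 3 of them at an unadjusted p below 0.05 and 3 above in every Cx43KO library. The calcium pumps, with the mitochondrial exchanger gene Slc8b1, had positive values for 6 of 6 tested genes. Of them 4 were at an unadjusted p below 0.05 and 1 lay above in every Cx43KO library. The genes named as carbonic anhydrases, not all of which encode an active enzyme, were split into 4 positive and 3 negative values. They ran from -0.78 for Car8 to 2.46 for Car12. At an unadjusted p below 0.05, 2 of them were higher and 0 lower, and 3 lay above and 0 below in every Cx43KO library. The kinases that regulate the chloride cotransporters had 5 positive and 1 negative value, with Oxsr1 at 0.89 (SE 0.37) lying above in every Cx43KO library.

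The remaining lists did not share the positive direction. Partners of the sodium/proton exchangers had 2 positive and 3 negative values, and Chp1, which encodes a partner of plasma membrane exchangers of this family, lay below in every Cx43KO library with -0.43 (SE 0.26). Of the zinc-binding genes, the metallothionein genes Mt1, Mt2 and Mt3 had -0.92 (SE 0.60), -0.54 (SE 0.47) and -0.81 (SE 0.49), and Mtf1 had 0.14 (SE 0.32). No gene of these lists was called by edgeR.

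Several measured features moved with the positive values of the members. Relative to the Cx43FL mean, the median log2 ratio of the 54 members was 0.94, 0.40 and 0.57 in Cx43KO replicates 1 to 3 and -0.080, -0.18 and 0.24 in Cx43FL replicates 1 to 3, while the medians over all tested genes were between -0.014 and 0.020. Of the 54 members, 28 had their highest Cx43KO value in replicate 1, 6 in replicate 2 and 20 in replicate 3. In Cx43KO replicate 1 the ratio was higher for longer transcripts over all tested genes, from a median of -0.63 for transcripts up to 1500 bases to 0.90 for those over 6500 bases. Members are long, with a median of 4005 bases against 3108 bases over all tested genes. For the 17 members of 4500 to 6500 bases the median ratio in Cx43KO replicate 1 was 1.47, against 0.46 over all tested genes of that length, and in Cx43KO replicates 2 and 3 it was 0.50 and 0.88, against 0.11 and 0.079. For the 6 members over 6500 bases it was 1.81, 0.15 and 0.19 in Cx43KO replicates 1 to 3, against 0.90, 0.17 and -0.022 over all genes of that length. For the 15 members of 3000 to 4500 bases it was 0.44, 0.19 and 0.45, against 0.13, 0.035 and 0.083. The 16 members of 1500 to 3000 bases had 0.019, 0.15 and 0.75, against -0.27, -0.033 and 0.045. Spearman's rho between length and the log2FC, a description across genes, was 0.28 for the members and 0.28 for all tested genes. The neuronal and choroid plexus markers given above moved the same way. Microglial markers had 7 of 9 tested positive and 4 above in every Cx43KO library, where 8.08% of all tested genes lay above. They summed to 54.6, 57.6 and 30.4 CPM in Cx43FL and 151, 94.7 and 189 CPM in Cx43KO. Ependymal markers had 6 of 6 positive and 2 above in every Cx43KO library. Their sums overlapped, at 105, 44.3 and 100 CPM in Cx43FL and 89.6, 167 and 133 CPM in Cx43KO. Oligodendrocyte markers had 8 of 8 positive and 1 above in every Cx43KO library. Their sums overlapped too, at 591 to 1015 CPM in Cx43FL and 610 to 2662 in Cx43KO. Precursor markers, with 5 of 6 positive and 1 above in every Cx43KO library, summed to 194 to 258 and 191 to 340 CPM. Endothelial and mural markers, with 5 of 6 tested positive and 0 above in every Cx43KO library, summed to 34.8 to 36.8 and 24.7 to 94.1 CPM. The part of transcript length, of Cx43KO replicate 1 and of other cell types in the members' values was not tested.

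**Figure D4:**
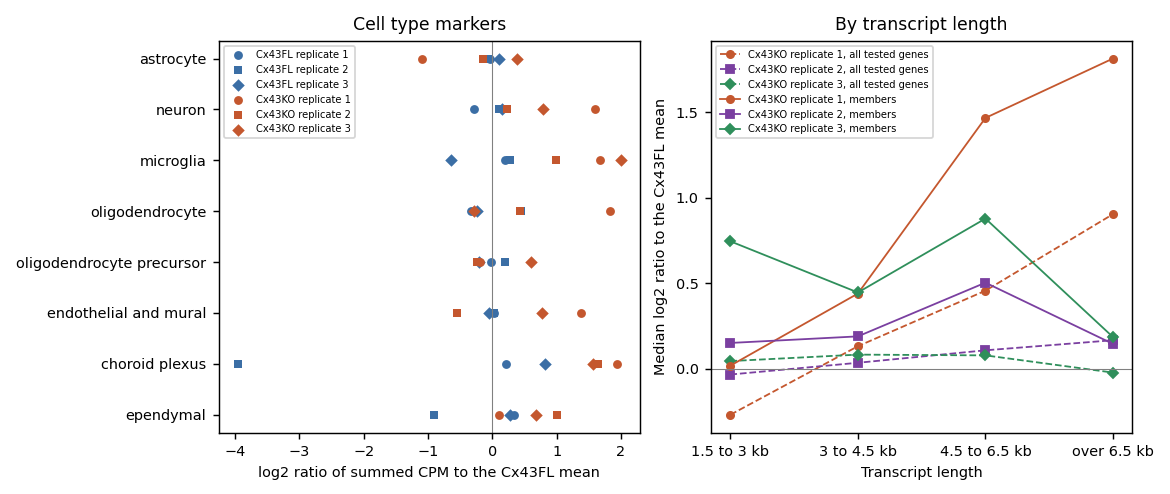
Left, log2 ratio of the summed CPM of each marker list to its Cx43FL mean, by library, with blue symbols for Cx43FL and orange symbols for Cx43KO. Right, median log2 ratio to the Cx43FL mean by transcript length in each Cx43KO library, for all tested genes (dashed) and for the members (solid). The choroid plexus sum is far lower in Cx43FL replicate 2 than elsewhere, and in Cx43KO replicate 1 both lines rise with length, from -0.27 to 0.90 for all tested genes and from 0.019 to 1.81 for the members.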

How the data were processed

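Ribosome-bound RNA of hippocampal astrocytes was sequenced after amplification in 3 Cx43FL and 3 Cx43KO libraries. The authors removed short or low-quality reads, aligned the rest to mm10 with STAR, kept uniquely mapped reads, used HTSeq-count 0.5.3 and deposited raw counts per Ensembl transcript. Here 73157 of 75466 transcripts were matched to 22086 genes of the GRCm38 annotation, the others holding 1.60% to 1.78% of the counts. The test between genotypes was that of edgeR 4.0.16 (R 4.3.3; TMM, filterByExpr, quasi-likelihood F test, genotype alone, adjustment over 13545 genes), and with DESeq2 1.42.0 as an alternative. The standard error is the absolute log2 fold change over the square root of F. Log2 ratios of single libraries used CPM plus 0.5. Named members are those of the study's list, those not overlapping, the 5 highest and 5 lowest fold changes, the 2 most abundant per family and members known for the brain; others named were chosen after their values were seen. Members and lists were chosen with earlier results of these data known. Libraries of a genotype differed by more than sampling noise (chi-square per degree of freedom 33.7 or more). The methods name separate libraries, not the animals behind them, so p-values measure the spread between libraries. Library totals on transcripts were 33423491 to 77030398 counts. Values of 3 tested members and of some partner genes are not reported here, while counts and medians over members include them.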

Additional observations from a re-analysis of the deposited data

How the results depend on the processing

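The count of members called higher in Cx43KO, 0 with edgeR, was 1 with DESeq2 with its prior, 2 without the prior and 11 at an unadjusted p below 0.05. It was 0 under the other alternatives, namely 2 other scalings (upper-quartile factors and the size factors of DESeq2), a filter of 10 counts per library or none, no minimum on the mean, the sum of all transcripts, the replicate block and each library left out. The count called lower was 0 under every alternative run. Members above in every Cx43KO library numbered 8 to 10 under the other scalings, filters and the sum of transcripts. Of all tested genes, 6.93% to 8.01% lay above under these settings. With 1 library left out, 13 to 20 members lay above. These were 18 without Cx43FL replicate 3 and 20 without Cx43KO replicate 2, where 13.2% and 14.1% of all tested genes lay above. Over all genes this share was 10.5% to 16% with 1 library left out. The construction makes this count larger with fewer libraries. Members below in every Cx43KO library numbered 2 without a filter, against 6.56% of all genes. With 1 library left out they numbered 2 to 5, against 10.3% to 15.8% of all genes. The count of 5 was that without Cx43KO replicate 3, where 15.8% of all genes lay below. With the genes and scaling used in DESeq2, 9 members lay above (Slc39a7 gained, Slc4a10 and Slc4a3 lost) and 3 below (Slc4a1ap and Slc9a5 gained), against 6.48% and 7.35% of these genes. The median log2 fold change of the members stayed between 0.44 and 0.95 over all alternatives. Of 29 named members, 25 kept their sign throughout. With 1 library left out, values lay between -0.28 and 1.28 for Slc26a2, -1.24 and 0.27 for Slc26a4 (0.070 without Cx43KO replicate 2), -0.077 and 0.63 for Slc30a10, and -0.65 and 0.056 for Slc39a12. The cause was not tested. Replicate numbers did not pair the libraries, the correlations of same-numbered libraries lying between -0.041 and 0.0016. In a fit with this block 0 members were called, the median was 0.60 and the adjusted p of Slc8a2 was 0.383. Members with few reads are limited by depth.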
